A study of Mus musculus with 6 samples.

Results

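The 9 enzymes described here make the building blocks of RNA and DNA, and their mRNA was measured in mouse hearts with and without the RNA-binding protein gene Rbpms. They are the phosphoribosyl pyrophosphate synthetases Prps1 and Prps2, the pyrimidine enzymes Umps and Ctps, the ribonucleotide reductase subunits Rrm1 and Rrm2, and the thymidylate enzymes Tyms, Tk1 and Dut. Members were found by gene symbol among the 20893 genes of the deposited table, and all 9 passed the filter on low values. The set was chosen by symbol with the knockout and wildtype values of these libraries already known, so the difference between the groups is a description for the members and not a test.

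Stranded, single-end sequencing of mRNA was used to profile hearts from C57BL6/J mice. The knockout group (labelled R1KO, 3 libraries) carried a germline knockout of Rbpms, whose deleted part is not given, and the comparison group (3 libraries) was wildtype. No transgene, Cre driver or treatment is given for either group. The series title speaks of embryonic hearts and the design text of neonatal hearts with littermate controls, and no age is given. Separate animals are not stated either, so the spread between libraries may in part be technical.

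Cells obtain nucleotides by new synthesis and by salvage of used bases and nucleosides. New synthesis of purines and pyrimidines, and base salvage, draw on phosphoribosyl pyrophosphate, which the Prps enzymes make. For DNA, ribonucleotide reductase removes an oxygen from the ribose of finished ribonucleotides, and thymidylate is made from deoxyuridylate or salvaged from thymidine. In dividing cells many of these genes are transcribed most in late G1 and S phase, when DNA is copied. Heart muscle cells of mice stop dividing soon after birth, whereas other heart cells keep dividing.

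Promoter sequence is shown for 5 members, the paired subunits Rrm1 and Rrm2, the isoenzymes Prps1 and Prps2 and the gene Ctps, because their values, given below, run in parallel or apart. The sequences are the 120 bases before the transcription start in RefSeq on GRCm38.p6, a build other than that of the expression table, read 5′ to 3′ on the strand of the gene. Capitals mark matches, on either strand, to CCAAT, to GGGCGG (the GC box) or to TTTGAA (a core letter string of the cell cycle homology region).
Rrm1 (chr7:102441575-102441694, forward strand): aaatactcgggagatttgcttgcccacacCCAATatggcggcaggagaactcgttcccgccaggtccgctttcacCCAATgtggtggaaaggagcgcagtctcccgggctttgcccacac
Rrm2 (chr12:24708134-24708253, forward strand): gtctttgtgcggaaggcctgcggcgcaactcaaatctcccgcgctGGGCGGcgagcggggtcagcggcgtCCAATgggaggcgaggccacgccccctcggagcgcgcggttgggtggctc
Prps1 (chrX:140456483-140456602, forward strand): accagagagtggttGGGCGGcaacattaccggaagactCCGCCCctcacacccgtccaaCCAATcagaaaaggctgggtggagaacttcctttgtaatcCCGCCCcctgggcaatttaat
Prps2 (chrX:167382750-167382869, reverse strand): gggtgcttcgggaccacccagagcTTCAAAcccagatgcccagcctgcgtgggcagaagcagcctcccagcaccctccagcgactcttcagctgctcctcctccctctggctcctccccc
Ctps (chr4:120570277-120570396, reverse strand): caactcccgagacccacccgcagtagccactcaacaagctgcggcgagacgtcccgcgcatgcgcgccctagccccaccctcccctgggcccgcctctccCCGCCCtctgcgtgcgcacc

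All 9 members had a RefSeq window of 300 bases, from 250 before to 50 after the start, and the first listed start was used for Ctps, which had a further start. CCAAT, the core of NF-Y sites, occurred in 3 of the 9 windows (Rrm1, Rrm2 and Prps1), and in 37.4% of all 32851 windows of this length. Rrm1 held 2 matches, which began 91 and 45 bases before the start, and Rrm2 held 1, which began 50 bases before it. GGGCGG occurred in 7 of the 9 windows against 35.7% of all windows, and was not found in Prps2 or Rrm1. An E2F letter string (TTTCCCGC, TTTGGCGC, TTTCGCGC or TTTGCCGC) was found in 1 of the 9 windows, that of Prps2, where it lies past the start and is not printed, and in 2.3% of all windows. Only these exact strings were sought, so a window without a match may still hold near variants of them. TTTGAA was found in Prps2 and Umps and in 17.9% of all windows. No match to one string overlapped a match to another in the printed sequences. A match describes letters only and was not tested as a binding site.

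The labels were checked first. Rbpms stood at 340 to 507 in the knockout and at 1176 to 1317 in the wildtype libraries, on the deposited scale of normalised reads per gene. The estimated read totals ran from 4163230 to 5805892. All 7 cardiomyocyte markers were detected in every library, with summed values of 16052 to 18241 in knockout and 17664 to 19374 in wildtype hearts. By Xist and the Y-linked gene Eif2s3y, knockout replicate 3 and wildtype replicate 1 were female and the other 4 libraries male. Knockout replicate 3 stood apart. Its mitosis markers summed to 5224, against 2154 and 2531 in the other knockout libraries and 3439 to 4560 in wildtype. Its 7 erythroid markers summed to 2131, against 738 to 952 in the other 5 libraries, and its 7 epicardial markers to 881, against 1412 to 1657. No defining marker found in the table was at 0 in all libraries, and among 46 tested markers of 7 cell types limma called 0 (6 had an unadjusted p under 0.05, and voom on reads estimated from the values called 0). Median log2 fold changes were -0.09 for cardiomyocyte, 0.05 for endothelial, -0.05 for fibroblast, -0.08 for leukocyte, -0.13 for smooth muscle and pericyte, 0.13 for erythroid and -0.28 for epicardial markers. Without knockout replicate 3 the epicardial median was 0.03 and the leukocyte median 0.06, both turned in direction, and the erythroid median was 0.03. Of the markers, limma then called Emcn higher and Myh11 lower, in a fit that called 4.86% of all genes. The genes of smallest p were, with their log2 fold changes, Tnnt2 (-0.20) among cardiomyocyte, Emcn (0.41) among endothelial, Tcf21 (0.38) among fibroblast, Cd68 (-0.28) among leukocyte, Myh11 (-0.61) among smooth muscle and pericyte and Wt1 (0.28) among epicardial markers, with adjusted p from limma of 0.057 for Myh11 to 0.343 for Cd68. Tcf21 and Wt1 went against most of their lists, in each of which 5 of 7 fold changes were below 0. The part of these cell type markers in the members' values was not tested.

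Of the 9 enzymes, 6 were lower in every knockout library than in every wildtype library (Prps2, Tk1, Rrm2, Rrm1, Tyms and Dut), 1 was higher in every knockout library (Ctps), and Prps1 and Umps overlapped. Over all 14974 tested genes the groups did not overlap, lower in the knockout, in 10.9%, and higher in 11.0%. The median log2 fold change of the members was -0.39, beside 0.00 over all tested genes. Limma on log2(value + 1), adjusted over all tested genes by the Benjamini-Hochberg method, called 1 member at a threshold of 0.05, Prps2, which was lower. The same fit called 0.942% of all genes, and 0.434% as lower. In bulk tissue, fewer cells that express a gene and less RNA of it per cell cannot be told apart.

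**Figure D1:**
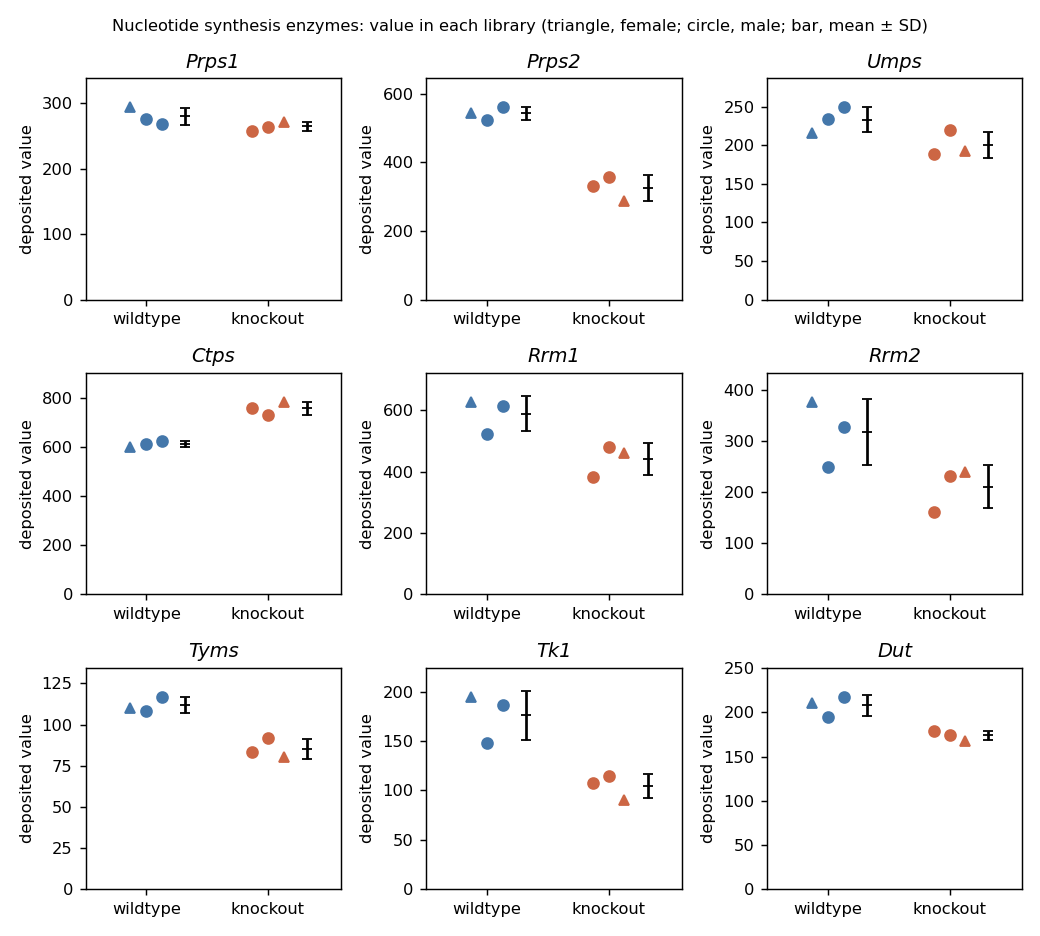
Deposited value (y axis, normalised reads per gene, starting at 0) of each of the 9 enzymes in the 3 wildtype and 3 knockout libraries. Triangles are female and circles male libraries, and bars beside the points are mean ± SD. Prps2 lies between 286 and 358 in the knockout and between 522 and 560 in the wildtype libraries, while the points of Prps1 overlap.

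The Prps enzymes transfer pyrophosphate from ATP to ribose phosphate, and mouse Prps1 and Prps2 both lie on the X chromosome. Prps2 (ENSMUSG00000025742, X:166129318-166165745 on mm39, reverse strand) held 332, 358 and 286 in knockout replicates 1 to 3 and 544, 522 and 560 in wildtype replicates 1 to 3. Every knockout library was low, and the wildtype libraries lay close together. With means of 325 ± 36.5 and 542 ± 19.1 (SD, n = 3 each), the level was 0.599 of wildtype (log2 fold change -0.74, standard error 0.09, 95% interval -0.94 to -0.54). Its fold change was -0.65 without knockout replicate 3 and lay between -0.81 and -0.65 over 19 alternatives, in 13 of which Prps2 was called and in 6 not. Between the female libraries alone, 1 per group, the log2 difference was -0.93, and over the 4 male libraries -0.65.

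Prps1 (ENSMUSG00000031432, X:139357362-139376889, forward strand) held 258, 264 and 272 in the knockout and 294, 276 and 269 in the wildtype libraries. The groups overlapped, and the means of 265 ± 7.02 and 280 ± 12.9 (SD, n = 3 each) gave a log2 fold change of -0.08 with a 95% interval of -0.25 to 0.10. The interval of Prps1 does not reach that of Prps2, although the difference between the isoenzymes was not tested. The ratio of Prps2 to Prps1 was 1.29, 1.36 and 1.05 in the knockout libraries. In the wildtype libraries it was 1.85, 1.89 and 2.08, higher in each than in any knockout library. Per kilobase of their main transcripts, the wildtype hearts held alike levels of Prps2, 147 ± 5.16, and Prps1, 142 ± 6.56 (SD, n = 3 each), whereas the knockout hearts held 88 ± 9.86 of Prps2 and 135 ± 3.57 of Prps1. Of the 72-base windows of the Prps1 transcript (the read length in the labels) 5.6% also occur in transcripts of Prps1l3, so the reads of both are uncertain there. Windows of Prps2 occurred in no other annotated transcript.

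**Figure D2:**
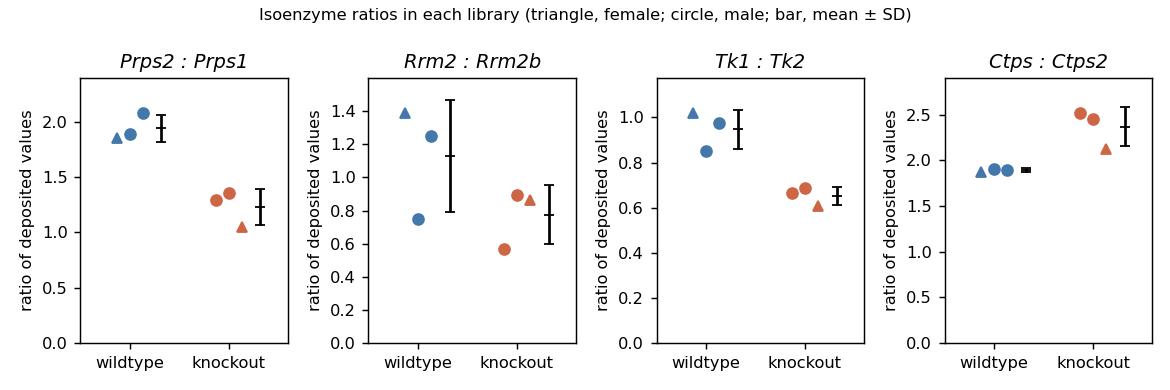
Ratio of deposited values (y axis, starting at 0) of each enzyme to its isoenzyme in every library, with mean ± SD beside the points, triangles for female and circles for male libraries. The Prps2 to Prps1 and Tk1 to Tk2 ratios are lower, and the Ctps to Ctps2 ratio higher, in each knockout library than in any wildtype library, while the Rrm2 to Rrm2b ratios overlap.

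In pyrimidine synthesis the 2 members differed. Umps, which carries out the closing steps to uridylate, overlapped between groups. Ctps, which turns UTP into CTP and is the main CTP synthase of proliferating cells, was the only member with higher values in the knockout. Ctps (ENSMUSG00000028633, 4:120397065-120427473, reverse strand) held 759, 730 and 782 in the knockout and 597, 612 and 624 in the wildtype libraries. The spread within each group was small beside the gap between them. Its means were 757 ± 26.1 and 611 ± 13.5 (SD, n = 3 each), with a log2 fold change of 0.31, a standard error of 0.06 and a 95% interval of 0.17 to 0.45. The isoenzyme Ctps2, also X-linked, stood at 322 ± 39.6 and 323 ± 4.93, and the ratio of Ctps to Ctps2 was 2.52, 2.45 and 2.12 in knockout against 1.87, 1.91 and 1.90 in wildtype libraries. Umps (ENSMUSG00000022814, 16:33775152-33787408, reverse strand) held 188, 219 and 193 against 216, 234 and 249. Knockout replicate 2 lay above wildtype replicate 1, and the log2 fold change of -0.22 had a 95% interval of -0.45 to 0.01.

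Ribonucleotide reductase needs the large catalytic subunit, encoded by Rrm1, and a small radical-bearing subunit, which is Rrm2 in S phase and Rrm2b in resting cells or after p53 activation. Rrm1 (ENSMUSG00000030978, 7:102090902-102118978, forward strand) held 383, 481 and 460 in the knockout and 627, 523 and 615 in the wildtype libraries. The gap between the groups was 481 to 523, narrow beside the spread. From means of 441 ± 51.6 and 588 ± 56.9 (SD, n = 3 each) came a log2 fold change of -0.42 (standard error 0.10). Rrm2 (ENSMUSG00000020649, 12:24758240-24764145, forward strand) held 162, 231 and 240 against 377, 249 and 328. Here knockout replicate 3 and wildtype replicate 2 nearly touched, and the means of 211 ± 42.7 and 318 ± 64.6 gave -0.59 on the log2 scale (standard error 0.19). Its 95% interval of -1.04 to -0.14 was the widest of the members, and its fold change was -0.41 without knockout replicate 1 and -0.76 without wildtype replicate 2.

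The proportion of Rrm1 to Rrm2 did not separate the groups. The ratio was 2.36, 2.08 and 1.92 in the knockout and 1.66, 2.10 and 1.88 in the wildtype libraries, overlapping between groups. Per kilobase of main transcript the wildtype hearts held 147 ± 14.2 of Rrm1 and 145 ± 29.4 of Rrm2 (SD, n = 3 each). Rrm2b was lower than either, at 63.4 ± 8.35 per kilobase, and its values of 274 ± 13.1 in knockout and 289 ± 38.1 in wildtype hearts overlapped (log2 -0.07, standard error 0.10, limma, adjusted p = 0.775). The ratio of Rrm2 to Rrm2b was 0.57, 0.892 and 0.863 in the knockout and 1.39, 0.748 and 1.25 in the wildtype libraries. Wildtype replicate 2 lay within the knockout range. Of the 72-base windows of Rrm2, 3.25% occur in the annotated gene Gm48445.

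Thymidylate is supplied along 2 routes. Dut removes pyrophosphate from dUTP, which keeps uracil out of DNA and yields the substrate that thymidylate synthase (Tyms) methylates, whereas thymidine kinase (Tk1, cytosolic) salvages thymidine. Tk1 (ENSMUSG00000025574, 11:117706352-117716918, reverse strand) held 107, 114 and 90 in the knockout and 195, 148 and 186 in the wildtype libraries. The groups were well apart, and knockout replicate 3 was the lowest. Its means of 104 ± 12.3 and 176 ± 24.9 (SD, n = 3 each) put it at 0.592 of the wildtype level (log2 fold change -0.76, standard error 0.15), and at -0.66 on the log2 scale without knockout replicate 3. With all 6 libraries its fold change was close in size to that of Prps2, but its standard error was larger and it was not called with all 6 libraries. It was called, beside Prps2, with a term for sex and when genes of low value were kept in, 2 fits that called 1.49% and 1.04% of all genes.

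The mitochondrial isoenzyme Tk2 stood at 158 ± 9.29 in knockout and 186 ± 10.1 in wildtype hearts (log2 -0.23, limma, adjusted p = 0.304). Tk2 too was lower in each knockout library than in any wildtype library. The ratio of Tk1 to Tk2 was 0.665, 0.687 and 0.608 in the knockout against 1.02, 0.851 and 0.974 in the wildtype libraries, with no overlap. Tyms (ENSMUSG00000025747, 5:30263200-30278615, reverse strand) held 83, 92 and 80 against 110, 108 and 117, low values in which 1 library rests on about 100 reads. On the log2 scale the difference was -0.39 (standard error 0.13). Dut (ENSMUSG00000027203, 2:125089110-125100528, forward strand) held 179, 175 and 168 against 211, 195 and 218, and its log2 fold change of -0.26 had a standard error of 0.09. Each knockout library lay below each wildtype library for Tyms and for Dut, by small margins. Of the 72-base windows of Tyms 5.89% occur in other annotated transcripts, the pseudogene Tyms-ps among them, and of those of Tk1 2.63% occur in Gm6091.

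**Figure D3:**
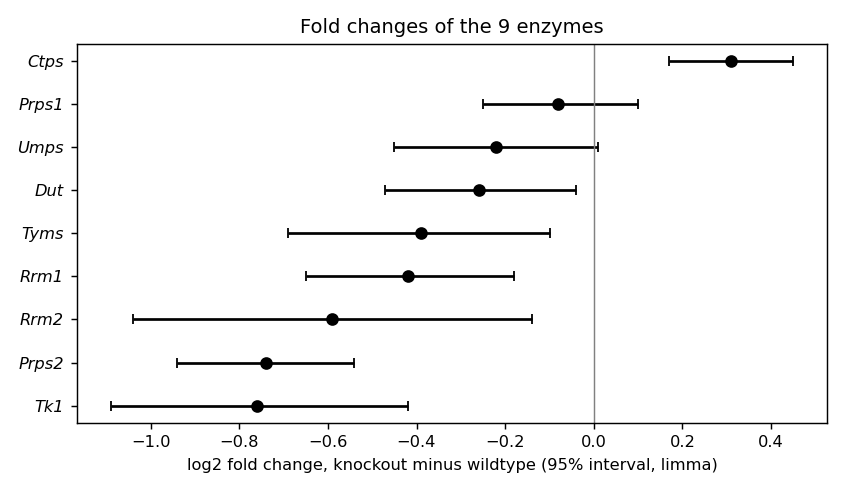
Log2 fold change of knockout minus wildtype (x axis, points) with its 95% interval from limma (bars) for the 9 enzymes, ordered by size. Tk1 and Prps2 lie at -0.76 and -0.74, Ctps lies above 0 at 0.31, and the intervals of Prps1 and Umps include 0.

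Levels of the members in wildtype hearts can be set against each other per kilobase of main transcript. Ctps was the highest at 226 ± 5.00, and Rrm1, Prps2, Rrm2 and Prps1 followed at 142 to 147 without differing beyond their spread. Tk1 stood at 122 ± 17.3, with an SD that reached that of Prps1 above it and that of Dut below it, which stood at 107 ± 6.05. Umps followed at 66.9 ± 4.74 and Tyms was the lowest at 35.3 ± 1.49 (SD, n = 3 each). In the same hearts Ctps lay above 85.5% of all tested genes on this scale and Tyms above 31.1%. Estimated reads per base of main transcript stayed between 0.031 and 0.257 for the members.

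The members were not lowest in the same knockout library. Against the wildtype mean, on the log2(value + 1) scale, Rrm2 was at -0.95, -0.44 and -0.38 in knockout replicates 1, 2 and 3, and Rrm1 at -0.61, -0.29 and -0.35. Both were thus lowest in replicate 1. Prps2, at -0.70, -0.60 and -0.92, Tk1, at -0.71, -0.61 and -0.95, Tyms and Dut were lowest in replicate 3. Ctps, at 0.31, 0.26 and 0.36, was highest there. The median of 20 S phase replication genes was -0.67, -0.18 and -0.77, lowest in replicate 3 as well, while the median of 18 mitosis genes was -0.89, -0.65 and 0.39.

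**Figure D4:**
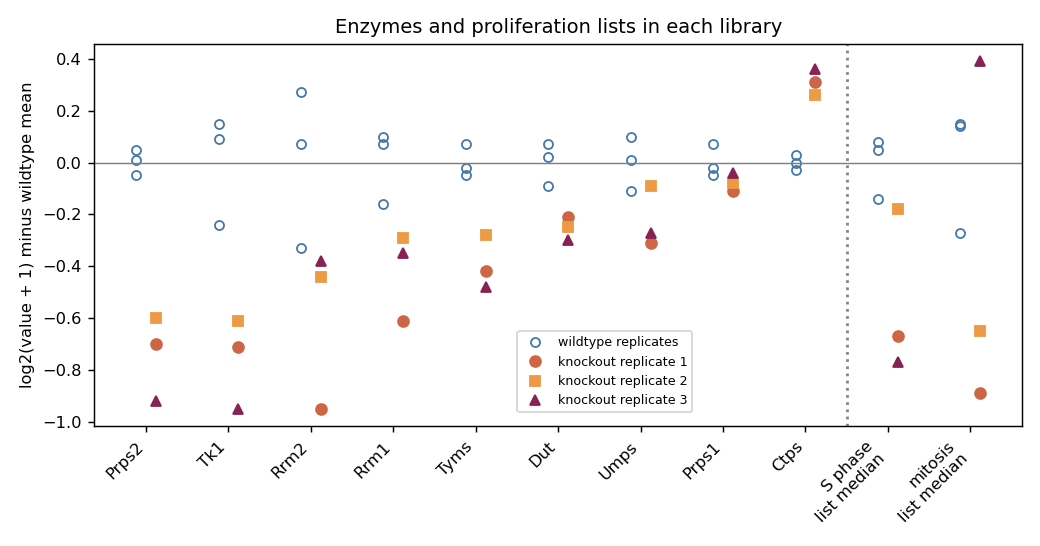
Difference of each library from the wildtype mean on the log2(value + 1) scale (y axis) for the 9 enzymes and, right of the dotted line, for the medians of the S phase and mitosis lists. In knockout replicate 3 (triangles) the mitosis median is 0.39 while Prps2 and Tk1 are at -0.92 and -0.95.

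The members were also set against proliferation genes. The S phase list had a median log2 fold change of -0.54, with 20 of 20 fold changes below 0 and 9 of 20 genes lower without overlap, beside 10.9% of all tested genes. The unadjusted p from limma was under 0.05 for 14 of the 20, beside 16.4% of all tested genes. Limma called 1 of the 20, beside 0.942% of all genes, namely the X-linked polymerase subunit Pola1 (log2 -0.86, standard error 0.16, adjusted p = 0.0472). Voom on the estimated reads called 0 of the 20 (Pola1, adjusted p = 0.0531), and Pola1 was called in 9 of 19 alternatives, with an adjusted p of 0.00532 to 0.261. The mitosis list had a median of -0.35, with 18 of 18 fold changes below 0 and 0 of 18 genes lower without overlap. The unadjusted p was under 0.05 for 1 of the 18, and limma called 0, as did voom. The smallest p was that of Aurkb (log2 -0.67, adjusted p = 0.214). Without knockout replicate 3 the mitosis median was -0.79 and limma called 13 of the 18 lower, beside 4.86% of all genes, while the S phase median was -0.40 and 2 of the 20 were called lower, E2f1 (named after its values were seen) and Pola1. Per unit of Pcna, the sliding clamp of the replication fork, Prps2 was lower in each knockout library, at 1.99, 1.73 and 1.38 against 2.19, 2.43 and 2.07. Tk1 per unit of Pcna was 0.641, 0.551 and 0.435 against 0.786, 0.688 and 0.686, also without overlap. Rrm2 per unit of Pcna was 1.08 ± 0.0992 against 1.30 ± 0.196 (SD, n = 3 each) and overlapped. Pcna itself had a log2 fold change of -0.34, a smaller fall than the S phase list median of -0.54. Ratios to the other genes of that list were not taken, so the separation is shown for Pcna as denominator only. Per unit of the proliferation marker Mki67, Prps2, Tk1 and Rrm2 each overlapped between the groups, with Prps2 at 1.26, 1.03 and 0.472 in the knockout libraries. The part of these proliferation genes in the members' values was not tested.

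The rest of nucleotide metabolism was taken as 6 lists of 57 genes, of which 53 were tested. Limma called 0 of the 53 in either direction, as did voom on the estimated reads. An unadjusted p under 0.05 was seen for 12 (22.6%) of them and for 16.4% of all tested genes. The groups did not overlap in 7 higher and 8 lower genes, 13.2% and 15.1% of the 53, near the 11.0% and 10.9% of all tested genes. The lists were chosen with earlier results of these hearts known.

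De novo purine synthesis, the pathway that builds the purine ring on phosphoribosyl pyrophosphate, had a median log2 fold change of 0.10, and 8 of its 11 genes lay above 0. Its smallest p belonged to Gart, a trifunctional enzyme of the pathway, at 643, 615 and 667 in the knockout and 536, 531 and 532 in the wildtype libraries (log2 0.27, standard error 0.06, limma, adjusted p = 0.0833). Gart, like Ctps, was thus higher in each knockout library, without passing the test. The 3 tested partners and copies of the Prps enzymes had a median of -0.14, and Prpsap2, which binds the Prps enzymes as a regulatory subunit, stood at 69.7 ± 17.5 against 100 ± 4.93 (SD, n = 3 each; log2 -0.55, limma, adjusted p = 0.197). The pyrimidine genes Cad, Dhodh and Ctps2 all had fold changes below 0, with a median of -0.10, and Dhodh, the mitochondrial step of the pathway, had the smallest p (log2 -0.19, limma, adjusted p = 0.432).

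Among 15 genes of deoxynucleotide and thymidylate supply, 8 fold changes were above 0 and 7 below, with a median of 0.07. Mthfd1l, a mitochondrial enzyme of folate metabolism, had the smallest p, at 114, 117 and 84 in the knockout and 152, 150 and 158 in the wildtype libraries (log2 -0.56, standard error 0.15, limma, adjusted p = 0.114). Salvage genes had a median of 0.03 over 9 tested, with Uck2, a uridine and cytidine kinase, at 614 ± 82.6 against 502 ± 21.9 (SD, n = 3 each; limma, adjusted p = 0.187). Of the 9, 3 were lower without overlap, Tk2 among them, beside 10.9% of all tested genes. Without overlap 1 was higher, Uck2, beside 11.0%. Of 12 tested breakdown genes 7 had fold changes above 0, with a median of 0.15, and Dpyd, the first enzyme of pyrimidine breakdown, stood at 67.3 ± 11.6 against 111 ± 28.9 (limma, adjusted p = 0.155). The medians of these 6 lists, from -0.14 to 0.15, lay nearer to that of all genes than did the median of the members. The members were chosen with their values known and are left out of these lists. The contrast is thus a description and not a test.

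**Figure D5:**
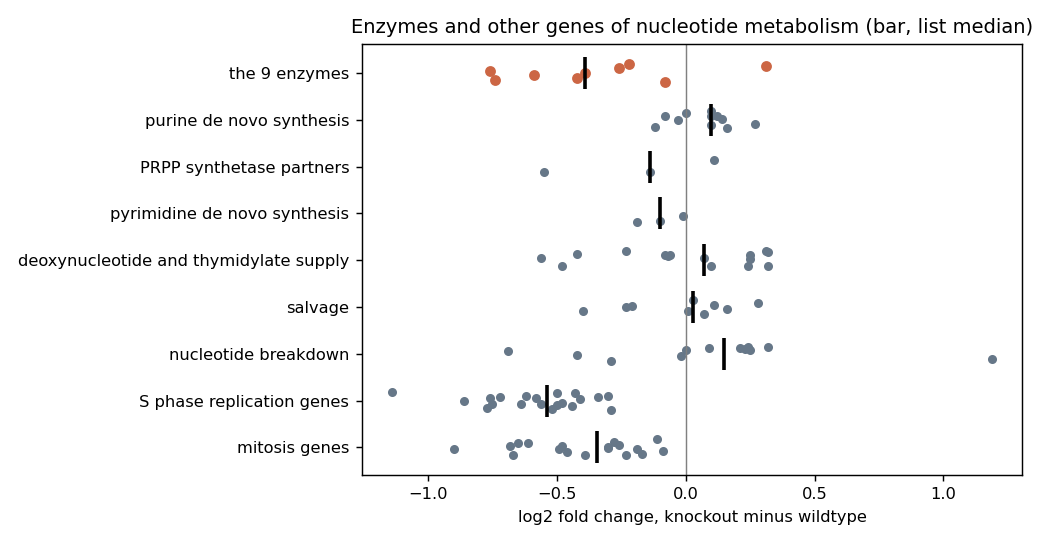
Log2 fold change of knockout minus wildtype (x axis) for the 9 enzymes, the tested genes of the 6 nucleotide lists and the S phase and mitosis lists, with 1 point per gene and a bar at the list median. The S phase median is -0.54, the median of the 9 enzymes -0.39, and the nucleotide list medians lie between -0.14 and 0.15.

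Genes with the most alike pattern were sought for each member by Pearson correlation of log2(value + 1) over the 6 libraries among 11253 protein-coding genes. The points share the 2 groups and the same libraries, so with so few points r near 1 is reached by several genes for each member. Rrm2 was most like Spc24, a kinetochore component (r = 0.998), and Melk, a kinase of dividing cells (r = 0.993), followed by Vps16 (r = 0.988). Tyms was most like Ybx2 (r = 0.999), Skp2, a ubiquitin ligase subunit that promotes entry into S phase (r = 0.998), and Cpq (r = 0.996). Prps2 was most like Rragd, a Rag GTPase (r = 0.998), the uracil DNA glycosylase Smug1 (r = 0.995) and Ociad2 (r = 0.995). Ctps was most like the keratin Krt80 (r = 0.994), Rmdn1 (r = 0.994) and Cdkn1a, the p21 inhibitor of cyclin-dependent kinases (r = 0.992). Tk1 was most like 2810408A11Rik (r = 0.999), Akr1b10 and Zfand6 (r = 0.991 each), and Dut was most like Wbp1 (r = 0.996), Dnajc9 and Msra (r = 0.992 each). For Rrm1 these genes were Tcf7l2 (r = 0.990), Zfp68 (r = 0.988) and Pepd (r = 0.983), for Umps Cstf2t (r = 0.995), Steep1 (r = 0.992) and Trappc13 (r = 0.985), and for Prps1 Gbp2 (r = 0.977), Prpf6 (r = 0.976) and Slc9a3r1 (r = 0.970).

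The count of members called depended on the libraries. Without knockout replicate 2 or without knockout replicate 3, 4 members were called, Prps2, Rrm1 and Tk1 lower and Ctps higher, and the same fits called 3.41% and 4.86% of all genes. Without knockout replicate 1 or any wildtype replicate, 0 members were called. Those fits called 0.0401% of all genes when knockout replicate 1 was left out, 0.0200% when wildtype replicate 1 was, and 0.00% when either of the other wildtype replicates was, and Prps2 was not among them.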

How the data were processed

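Heart mRNA of 3 knockout and 3 wildtype libraries was compared. Per the submitters' processing notes, which give no order, the tools were STAR 2.7.11a and featureCounts 2.0.4, beside Trimmomatic 0.39, DESeq2 1.36.0 and Picard 3.0.0, and the build was mm39. The strand setting of the counting is not given there. The values were taken as a score, not as counts: reads per gene that the authors scaled per library and rounded before they were deposited. The scale factors, 0.8524 to 1.1798, were read from the spacing of the low values. That spacing correlated with the one a factor predicts at 0.472 (wildtype replicate 2) to 0.831 (wildtype replicate 3). In knockout replicate 2 and wildtype replicates 1 and 3, only 99.84%, 99.04% and 99.31% of values could arise from the factor. Dividing by the factors gave estimated reads. These are not unique for 29.65% of the values in knockout replicate 3, 10.69% in knockout replicate 1 and 6.83% in wildtype replicate 2, where more than 1 read count rounds to the same value. A value of 100 thus rests on about 100 reads.

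Genes that reached 10 in 3 or more libraries, 14974 of 20893, were tested with limma 3.58.1 (trend, robust, R 4.3.3) on log2(value + 1), a scale that understates changes of low genes, with Benjamini-Hochberg adjustment. The members and lists were chosen with earlier results of these data known. Named were all members, Rbpms, the isoenzymes Rrm2b, Tk2 and Ctps2, in each list the genes called or else that of smallest p, and the 3 genes most alike (mean value of at least 50); 1 gene that this rule names is not reported here. Pcna and Mki67 were named outside this rule, as denominators of ratios. Transcript lengths are those of the APPRIS principal transcript in GENCODE M21, matched by gene identifier. No sample column was left unmapped. The fit was tested on simulated data in which the variation beyond counting error was alike for all genes and no library stood apart. That simulation cannot show how the fit does with a library such as knockout replicate 3.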

Additional observations from a re-analysis of the deposited data

Results flagged for a closer look

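Ctps2, the X-linked isoenzyme of Ctps, differed in direction between the sexes. Its log2 difference of knockout minus wildtype was 0.20 between the female libraries (1 per group), with values of 368 and 320. It was -0.12 over the male libraries (2 per group), with 301 and 298 against 321 and 329. Ctps2 was not alone among the members and the tested genes of the nucleotide lists. Ada, Itpa and Uck1 (named after their values were seen), none of them X-linked, also differed in direction without overlap of the male groups. How often this occurs over all tested genes was not counted. With so few libraries of each sex, the pattern is not known to be uncommon. The female and male log2 differences were 0.07 and -0.66 for Ada, -0.25 and 0.10 for Itpa, and -0.04 and 0.13 for Uck1. The difference between the sexes was not tested, and the female knockout library is knockout replicate 3, which stood apart in other genes too.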

How the results depend on the processing

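All 9 fold changes of the members kept their sign in all 19 alternatives and moved by less than the spread between replicates, within -0.88 to -0.58 for Tk1, -0.76 to -0.41 for Rrm2, -0.50 to -0.32 for Rrm1, -0.45 to -0.34 for Tyms, -0.30 to -0.22 for Dut, -0.29 to -0.17 for Umps, -0.11 to -0.04 for Prps1 and 0.27 to 0.33 for Ctps. The median of the members was -0.45 to -0.32 when each replicate was left out in turn. The number of members called was 2 with no filter on low values and 2 with a term for sex (Prps2 and Tk1), 0 without trend and robust moderation, 0 with the replicate number as a block, and 0 to 4 when each replicate was left out. Over all genes, 141 were called with all libraries, 218 with no filter on low values, 83 with a value of at least 50 in 3 libraries, 24 without trend and robust moderation, 72 with voom on the deposited values, 73 with voom on estimated reads, 256 for the male libraries alone, 23 with a block for the replicate number and 223 with sex as a term. Leaving out each replicate gave 0 to 727. Replicate numbers did not pair the libraries: same-numbered deviations correlated at -0.169, -0.111 and -0.130, and 0 of the 6 libraries correlated best with its own number. In the 6 nucleotide lists 0 to 1 genes were called when each replicate was left out. The 1 was Guk1, named after its values were seen, higher without knockout replicate 3. In an alternative chosen after seeing the data, the medians of the cell cycle and cell type lists were taken without knockout replicate 3; 2 of the 9 turned in direction, epicardial from -0.28 to 0.03 and leukocyte from -0.08 to 0.06. With equal library totals 42 genes were called higher and 58 lower, against 76 and 65 on the deposited scale. Counting error is largest, relative to the value, for Tyms, whose values are the lowest of the members.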
